A study of Equus caballus with 2 samples.

Results

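Among the sequence tags of stallion sperm RNA, 648 tags on the 31 autosomes and the X chromosome were long, free of masked repeats and of moderate coverage. A tag is a stretch of the genome over which aligned reads were clustered, and its average coverage (AC) is the normalised mean depth of reads along it. The members were selected on 3 values: a length of at least 300 bp, an AC under 100, and a tag sequence written wholly in upper case, since lower case marks repeats. They made up 3.42% of the 18952 tags on these chromosomes and 3.37% of all 19257 tags. The whole data set came from total RNA of EquiPure gradient-purified spermatozoa of 2 normal fertile stallions, with 1 SOLiD library each. There was 1 condition and no control group, and the deposited data give 1 AC per tag for both stallions together. Values in both stallions could be looked up for 51 members, which were among the more abundant tags. For these 51 this AC was the higher of the 2, and for the other members this was not checked. No AC therefore has a replicate error here and no difference was tested. Where the AC is the higher value, 2 tags compared by AC may take it from different stallions. A member may also have been much lower in the other stallion, as the study mapped some tags in only 1 of the 2. No count of reads was used here, so the number of reads behind each AC is unknown. All positions refer to EcuCab2.

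Mature sperm carry very little cytoplasm and are held to be transcriptionally silent, so their RNA is largely what was left from spermatogenesis, in whole or in fragments. In a protein-coding exon 1 of the 6 reading frames of the DNA (3 on each strand) runs without a stop codon, whereas stop codons arise often by chance elsewhere and in repeats. An uninterrupted frame over a long stretch is therefore a common sign of coding sequence, although short or GC-rich stretches can be open without coding for anything. Neither the tags nor the methods give a strand, so every frame described here was read from the sequence alone.

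The sequences that carry the results are of 3 kinds. The first are 3 successive units of a zinc finger array, in which each finger is a small protein fold that holds a zinc ion with cysteine and histidine residues and is typical of DNA-binding proteins. They lie in the member chr10:27322730-27325162, at chr10:27324180-27324263, chr10:27324096-27324179 and chr10:27324012-27324095, and are printed 5′ to 3′ from the minus strand. Capitals mark the codons of the paired cysteines and paired histidines of each finger.
zinc finger 1: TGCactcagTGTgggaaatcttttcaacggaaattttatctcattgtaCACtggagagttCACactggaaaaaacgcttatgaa
zinc finger 2: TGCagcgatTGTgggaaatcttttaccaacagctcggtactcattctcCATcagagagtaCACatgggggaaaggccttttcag
zinc finger 3: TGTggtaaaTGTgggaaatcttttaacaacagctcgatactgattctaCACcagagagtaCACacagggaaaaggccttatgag

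The second are 2 successive units of a tandem repeat in the member chr11:57863086-57863945, at chr11:57863461-57863688 and chr11:57863233-57863460, again from the minus strand. Capitals mark the bases at which the 2 units differ.
repeat unit 1: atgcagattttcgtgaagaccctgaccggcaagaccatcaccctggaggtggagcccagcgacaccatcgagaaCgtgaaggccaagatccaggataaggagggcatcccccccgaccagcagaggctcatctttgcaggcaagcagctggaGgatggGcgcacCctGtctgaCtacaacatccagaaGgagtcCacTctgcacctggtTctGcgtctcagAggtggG
repeat unit 2: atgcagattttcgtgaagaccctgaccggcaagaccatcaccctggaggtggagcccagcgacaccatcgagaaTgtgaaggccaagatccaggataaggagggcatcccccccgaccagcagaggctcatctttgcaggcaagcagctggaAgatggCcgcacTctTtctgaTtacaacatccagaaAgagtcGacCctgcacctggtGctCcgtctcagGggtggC

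The last are the edges of neighbouring members of the largest locus, on ECA17, which show the same reading frame on both sides of short gaps. The bases within the gaps were not read. The edges are printed from the minus strand. Capitals mark, in the shared frame, the last whole codon before each gap and the first whole codon after it. The first gap, between chr17:71312395-71312454 and chr17:71312326-71312385, was 9 bp long, and the second, between chr17:71311739-71311798 and chr17:71311672-71311731, was 7 bp long.
junction 1 upstream edge: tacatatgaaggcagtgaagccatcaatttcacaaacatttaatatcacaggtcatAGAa
junction 1 downstream edge: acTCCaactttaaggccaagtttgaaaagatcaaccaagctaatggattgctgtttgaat
junction 2 upstream edge: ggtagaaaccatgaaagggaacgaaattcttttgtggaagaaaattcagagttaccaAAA
junction 2 downstream edge: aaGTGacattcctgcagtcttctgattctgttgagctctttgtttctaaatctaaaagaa

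The 648 members covered 374744 of the 2140247 tag bases on these chromosomes (17.5%) but only 1.04% of the bases weighted by AC. They were 300 to 3929 bp long (median 442 bp), and 55 of them were 1000 bp or longer. Their AC lay between 5.09 and 99.07, with 13.5 as the median, and the middle 50% of the members lay between 10.1 and 22.3. Most members thus sat near the low end of the range that the rule allowed, and 151 had an AC under 10. The median GC content was 53.4% (quartiles 47.2 and 58.2), and the median ratio of observed to expected CpG was 0.33. A GC content over 50% together with a CpG ratio over 0.6, the usual marks of CpG-rich DNA, was found in 66 members (10.2%). The same held for 25 of 498 long partly masked tags (5.02%) and 0 of 34 long wholly masked tags. It held for 5 of 44 long unmasked tags with an AC of at least 100 (11.4%). Among unmasked tags of 100 to under 300 bp it held for 545 of 3497 (15.6%). The sequence of 3 members held unknown bases.

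**Figure D1:**
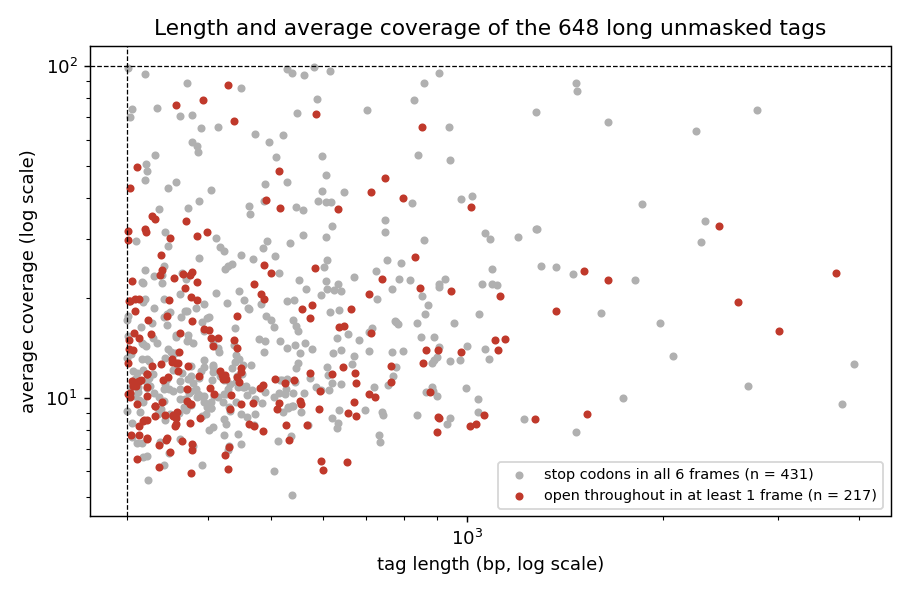
Tag length in bp (x axis, log scale) against average coverage (y axis, log scale) for the 648 members, 1 point each. Red points are the 217 members with at least 1 frame open over the whole tag and grey points the other 431, and the dashed lines mark the limits of 300 bp and AC of 100 that chose the members.

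The limits cut through a continuous range of tags. The shortest members were 300 bp long (3 tags, AC 9.13 to 17.14), and the 5 longest unmasked tags left out were 1 bp shorter (AC 8.73 to 13.48). At the coverage limit the highest members were chr11:1474933-1475515 (AC 99.07) and chr4:18125325-18125626 (AC 98.94), and the nearest tag left out was chr12:21923621-21924186 (AC 101.1). The least masked long tag left out, chr11:48966943-48967419, had 0.419% of its 477 bases in lower case.

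A reading frame open over the whole tag was found in 217 of the 648 members (33.5%). In 181 of them exactly 1 of the 6 frames was open, in 35 there were 2 such frames and in 1 there were 3. The longest open run of a member, in any frame, had a median of 336 bp and filled a median of 82.2% of the tag. Where 1 frame was open throughout, the median GC content was 57.0% at the first codon position, 45.2% at the second and 57.5% at the third. The second position, which is the poorest in GC in typical mammalian coding sequence, was the lowest of the 3 in 107 of these 181 members. The same count was not made for other tags or frames. These frames were also chosen for having no stop codon, which bears on the base content by position.

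Long tags that were partly masked were set beside the members by length, since a longer tag has more chances to hold a stop codon. From 300 to under 500 bp, 143 of 383 members (37.3%) and 34 of 189 partly masked tags (18.0%) were open throughout. From 500 to under 1000 bp these were 57 of 210 members (27.1%) and 10 of 212 partly masked tags (4.72%). At 1000 bp or more they were 17 of 55 members (30.9%) and 6 of 97 partly masked tags (6.19%). The share was higher in the members in each length class, as a description without a test. Of the 17 open members of 1000 bp or more, 4 lay in the single locus on ECA17 described below, and without that locus 32.4% of all members were open throughout. Of the 44 long unmasked tags with an AC of 100 or more, 7 (15.9%) were open throughout.

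**Figure D2:**
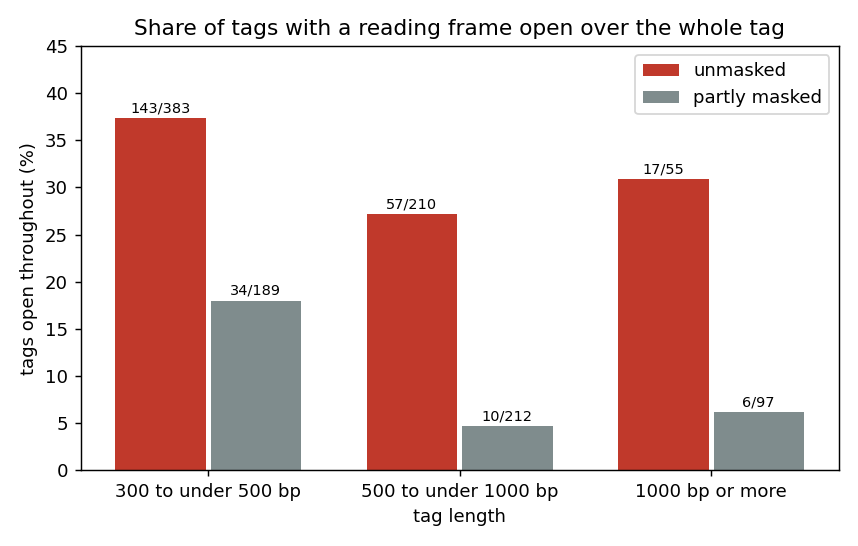
Percent of tags with at least 1 of 6 reading frames open over the whole tag (y axis) by tag length (x axis), for the unmasked members (red) and for partly masked tags of the same limits of length and coverage (grey), with the numbers of tags above the bars. The bars of the members stand at 37.3, 27.1 and 30.9% and those of the partly masked tags at 18.0, 4.72 and 6.19%.

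The share of open members was highest at low coverage and lowest at high coverage, again without a test. Below an AC of 10, 66 of 151 members (43.7%) were open throughout, and at an AC from 40 to under 100 these were 12 of 64 (18.8%). The bands in between stood at 32.1% (99 of 308) and 32.0% (40 of 125). The median length was 423 bp in the lowest band and 518.5 bp in the highest, and 144 of the 151 members of the lowest band lay on ECA1 and ECA10 to ECA19, beside 46 of 64 in the highest. Length and chromosome thus moved with coverage, and their part in this order was not tested. None of the 10 members with the highest AC (88.79 to 99.07) was open throughout, while 4 of the 10 longest (2290 to 3929 bp) were. The member with the highest AC that was also over 1000 bp long was chr1:70798304-70799772 (1469 bp, AC 89.04), and an open run filled 86.0% of it. Of the 10 highest members 5 lay on ECA1 and ECA10 to ECA19, and of the 10 longest 9 did. The open members had a median GC content of 56.2% and a CpG ratio of 0.38, beside 52.7% and 0.30 in the others.

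The letters AATAAA, which in a transcript serve as the signal for cleavage and polyadenylation near its 3′ end, were searched on both strands (AATAAA or TTTATT). They were found in 145 of 648 members (22.4%), or 0.53 per kb, and in 184 of 498 long partly masked tags (36.9%), or 0.78 per kb. In the unmasked tags of 100 to under 300 bp they were found in 223 of 3497 (6.38%), or 0.41 per kb. Among members open throughout 42 of 217 (19.4%) held them, and among the others 103 of 431 (23.9%). Per kb the order was the other way, with 0.57 in the open members and 0.51 in the others. The open members were shorter, with a median of 405 bp beside 459 bp. A match of 6 letters arises often by chance and marks no site by itself.

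Joined wherever they lay within 20 kb of each other, the members formed 470 loci, of which 356 held a single member and 114 held 2 or more. In this way 292 members (45.1%) had another member within 20 kb, and 581 (89.7%) had a tag of any kind that near. The share with any tag within 20 kb was 83.9% for long partly masked tags and 85.3% for long wholly masked ones. It was 86.4% for long unmasked tags with an AC of at least 100, and 88.7% for unmasked tags of 100 to under 300 bp. A tag of any kind this near was thus about as frequent there as for the members. The nearest tag of any kind lay within 50 bp for 149 members (23.0%), beside 121 of 498 long partly masked tags (24.3%), 12 of 34 long wholly masked tags (35.3%) and 11 of 44 long unmasked tags with an AC of at least 100 (25%). For unmasked tags of 100 to under 300 bp these were 261 of 3497 (7.46%). A neighbour this near was thus about as frequent for partly masked long tags as for the members. Within the 114 loci the highest AC was a median of 1.78 times the lowest, and in 62 of them the fold was at most 2, while in 1 locus it reached 17.6. The same fold was not computed for members of different loci.

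The largest locus lay at chr17:71295682-71316076 and held 12 members in 20395 bp. A single frame on the minus strand was open throughout 11 of these 12 members, which were 339, 711, 2606, 378, 878, 656, 567, 1271, 3013, 647 and 3682 bp long. In the order of their positions their AC was 26.92, 15.7, 19.37, 23.96, 10.4, 8.96, 8.25, 8.63, 15.84, 16.45 and 23.81. Over these 11 members AC was thus lower in the middle than towards both sides. The remaining member, chr17:71295682-71295998, lay at the lowest position and had no frame open throughout. Its AC of 7.28 was the lowest in the locus, so this order does not hold with it included.

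The same frame was also open in tags of the locus that were no members. Within the span and directly after it lay 4 tags that were no members, 3 because they were shorter than 300 bp and 1 of 2328 bp because 3.78% of its bases were masked, and all 4 were open in the same frame. Together 15 of these 16 tags, with 17569 bases, were open in it, and 86.9% of the 20572 bp from the first to the last tag was covered by tags. The 3 short tags add little to this, since 2903 of 3497 unmasked tags of 100 to under 300 bp (83.0%) had some frame open throughout. Of the 15 gaps between the 16 tags of the locus 8 were under 20 bp and the widest was 817 bp. The edges printed above show 2 of these gaps. The locus was poor in GC, with a median of 38.2% over its 12 members. The AC of the last tag, 160 bp long, was 76.42, above every member of the locus. The deposited data give these tags no gene name, and none was assigned here.

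**Figure D3:**
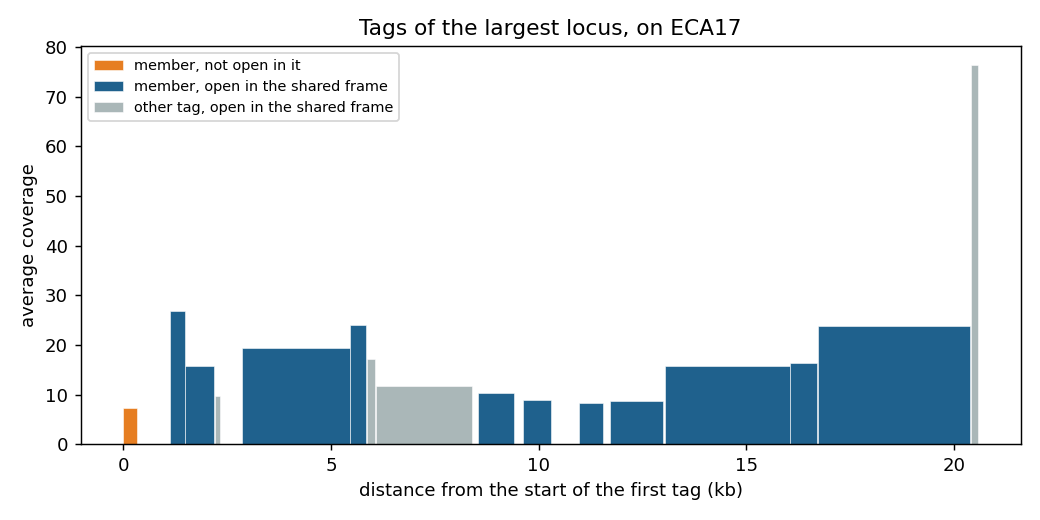
Average coverage (y axis) of the 16 tags of the ECA17 locus by their distance in kb from the start of the first tag (x axis), with the width of each bar equal to the length of the tag. Blue bars are the 11 members open in the shared minus-strand frame, the orange bar the member that was not, and grey bars the 4 other tags, all open in it, the last of which reached 76.42.

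The sharing of a frame was then counted for all neighbouring members that were both open throughout. With a gap of at most 50 bp between them, 13 of 13 pairs had a whole open frame in common on the chromosome, and 5 of these pairs belonged to the ECA17 locus. With a gap of 51 to 1000 bp these were 6 of 8 pairs, 3 of them in that locus, and with a wider gap, up to 20000 bp, 2 of 4. A shorter example lay at chr10:17084033-17087912, where 4 of 5 members shared a frame on the plus strand. Their AC, in the order of their positions, was 12.69, 12.39, 8.23, 8.31 and 8.78, and the first of them was the one not open throughout.

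In the other large loci at most 2 members shared a frame. The 6 members at chr13:18980864-18998185 had an AC of 8.32, 48.17, 87.67, 50.7, 62.15 and 11.64, high in the middle and low at both ends, and 1 of them was open throughout. The 6 members at chr15:29855937-29892822 ranged from 8.6 to 38.85, and 2 of them were open throughout. At chr11:50404223-50413881 the AC of 5 members was 25.23, 71.93, 30.07, 20.6 and 29.48. At chr11:44600972-44612947 it was 8.73, 13.15, 59.12, 15.14 and 8.9, and the last 2 of these members were open throughout in the same frame of the plus strand. In each of these last loci 1 member stood well above the other 4. The 5 members at chr10:21692117-21747931, with an AC of 8.85 to 38.36, belonged in part to the zinc finger tags. Of these, 3 were open throughout, and 2 of the 3 shared a frame of the plus strand.

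The classical zinc finger pattern, a spaced pair of cysteines followed by a spaced pair of histidines, was searched in the translation of all 6 frames of each tag. It occurred 2 or more times in 1 frame in 21 members (3.24%), with 158 fingers in all, and once in 8 others. Of these 21 members 11 lay on ECA10, where they were 11.5% of the 96 members of that chromosome, and 15 were open throughout. It occurred 2 or more times in 0 of the 614 other tags of at least 300 bp on these chromosomes, all of which were masked in part or in full or had an AC of at least 100. Among the 3497 unmasked tags of 100 to under 300 bp, which have room for few fingers, 2 held it.

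The richest zinc finger tag was chr10:27322730-27325162, of 2433 bp and AC 33.03, with 20 fingers and 1 frame open over its whole length. It was followed by chr10:28024234-28026213 with 18 fingers (AC 16.79) and chr10:22566961-22569279 with 13 (AC 34.18). The 21 members had an AC of 8.31 to 38.36 (median 13.9), close to the 13.5 of all members. The fingers followed each other in register: in 19 of the 21 members the shift at which the tag best matched itself was 84 bp or a multiple of it, which is 28 codons, the spacing of zinc fingers in an array. In the richest tag 58.3% of the bases equalled those 84 bp away, beside a median of 25.2% over all shifts from 20 to 300 bp.

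A match of the tag to itself of at least 60% at some shift was found in 13 members (2.01%), of which 9 were zinc finger tags. Such matches were about as frequent in other long tags. They were found in 8 of 498 partly masked tags (1.61%) and 1 of 34 wholly masked tags (2.94%). Among long unmasked tags with an AC of at least 100 they were found in 1 of 44 (2.27%). In the sequence of chr11:57863086-57863945, of 860 bp and AC 88.71, 76.1% of the bases equalled those 228 bp away. The tag held 3.77 lengths of this unit of 76 codons. Both units printed above begin with ATG on the minus strand, and they differed at 13 of 228 bases. All 13 differences were at the third position of a codon and left the encoded amino acid as it was. Units of this length joined head to tail are known from polyubiquitin genes, which encode ubiquitin, the small protein that marks others for degradation; no protein was matched to the tag here. The frame of the units was open over 693 bp (80.6% of the tag), while the longest open run of any frame, 834 bp, lay on the other strand. The longest run was therefore not always in the frame that the repeat follows. The tag was 92.4% identical over 687 bp to a more abundant tag on ECA8, of 1486 bp and AC 235.7.

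Another tandem repeat, in chr11:790244-791714 (1471 bp, AC 7.87), had a shift of 88 bp at 78.5% identity. This shift is not a multiple of 3, and no frame of the tag was open throughout.

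**Figure D4:**
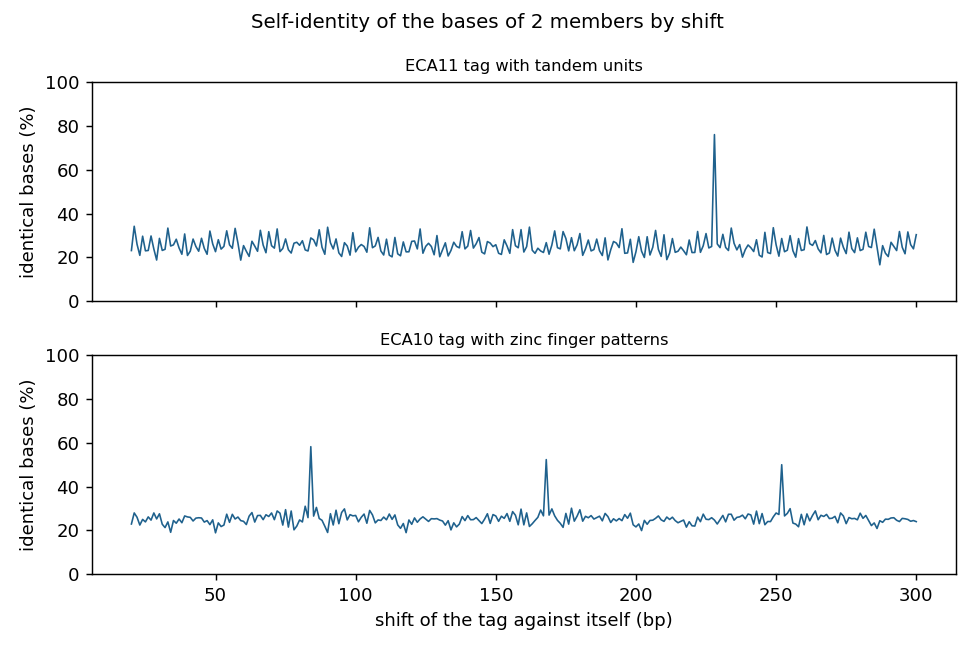
Percent of identical bases (y axis) when the sequence of a member is shifted against itself by 20 to 300 bp (x axis), for chr11:57863086-57863945 (upper panel) and chr10:27322730-27325162 (lower panel). The upper line has 1 peak, of 76.1% at 228 bp, and the lower line has peaks at 84, 168 and 252 bp, of 58.3, 52.4 and 50.1%.

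Similarity between tags bears on AC, because a read that matches several places can be discarded or counted at some or all of them. The study's methods state that reads with several alignments of like score were discarded, but tags of identical sequence had an AC above 0, as described below. How such reads were treated is thus not settled, and the AC of similar tags is uncertain to that extent. A match of at least 70% identity over at least 300 bp to another tag was found for 71 members, and for 53 of them to another member, and these 53 formed 16 families. The median AC of the 71 was 13.9, close to that of all members. The largest family held 15 members, 14 of them with zinc fingers.

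A family of 5 members lay on ECA13 and held the 2 longest members of all, chr13:24968287-24972215 (3929 bp, AC 12.62) and chr13:22669645-22673410 (3766 bp, AC 9.59). These were 97.0% identical over 3766 bp. The shorter chr13:22538958-22541656 (AC 10.84) and chr13:22745475-22746374 (AC 7.87) were each between 97.0 and 97.7% identical to them. The longest open run was 2100 bp in the first and 3543 bp in the second, or 53.5 and 94.1% of the tag, so near-identical tags differed in how far a frame ran without a stop codon.

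In 2 pairs the members were identical in every base and also in their AC. The tags chr10:26191050-26191453 and chr10:26231068-26231471, of 404 bp, both had an AC of 9.28. The tags chr13:25300117-25300448 and chr13:26823421-26823752, of 332 bp, both had an AC of 9.43. The same was true of every group of tags with identical sequence on these chromosomes: in 26 of 26 groups all tags had the same AC. This does not go together with discarding every read that matched 2 places equally well. The 2 tags of such a pair therefore cannot be told apart as sources of the RNA, and how their reads were assigned was not tested.

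The sequence of 5 members was almost that of the mitochondrial genome. Nuclear copies of mitochondrial DNA are common in mammals. On ECA27, chr27:37367025-37369816 (AC 73.7), chr27:37369922-37370861 (AC 52.02) and chr27:37371065-37372339 (AC 72.58) followed each other, and were 98.9, 98.8 and 97.9% identical to the mitochondrial tag over 2789, 940 and 1277 bp. On ECA14, chr14:16213507-16214346 (AC 54) was 99.5% identical over 840 bp, and on ECA5, chr5:87592738-87593225 (AC 39.16) was 95.1% identical over 487 bp. The mitochondrial tag had an AC of 4390, which was 59.6 to 112 times that of these members. With so few differing bases, reads of mitochondrial RNA and of these nuclear loci cannot be told apart by AC alone. The tag chr27:37367025-37369816 had the shortest longest open run for its length of all members, 522 bp or 18.7%. Its frames, like those of all tags, were read with the standard genetic code and not with that of mitochondria.

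The study's tables give a name to 4 members, found by their coordinates. The member chr13:33215022-33215459 (438 bp, AC 68.48) is listed at the cDNA of TNP2, transition protein 2, which takes the place of histones for a time before protamines do, and 1 of its frames was open throughout. This tag begins before the listed start of the gene, so the open frame also covers bases outside it. The members chr13:33208962-33209331 (AC 34.15) and chr13:33209441-33209827 (AC 39.19) are listed as lying downstream of PRM1, the protamine that packs sperm DNA, and had GC contents of 69.2 and 55.3%. The first of these also had 1 frame open throughout, although it is listed outside the exons of the gene, and the second had none. The member chr1:145282209-145282600 (AC 8.78) is listed at the microRNA MIR1282 and had no frame open throughout. The TNP2 and PRM1 names come from a list of genes that the study selected for their known functions in sperm, so their presence here says nothing about the other members. Markers of other cells of semen were not looked up in the members, because most tags carry no gene name.

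The members were spread unevenly over the chromosomes. ECA1 and ECA10 to ECA19, which are the 11 chromosomes whose number begins with 1, held 532 members (82.1%), and the other 21 chromosomes held 116 (17.9%). As a share of all tags this was 4.39% of 12104 tags and 1.69% of 6848 tags. Per Mb of the span of tags there were 0.591 members on the first group and 0.0798 on the second, with a range of 0.117 to 1.66 and of 0.0242 to 0.229 over single chromosomes. The highest densities were on ECA13 (70 members, 1.66 per Mb), ECA11 (96 members, 1.57 per Mb) and ECA12 (41 members, 1.24 per Mb), and the X chromosome had 3 members.

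The difference between these groups of chromosomes lay mostly at low coverage. Of long unmasked tags with an AC under 10, 144 were on ECA1 and ECA10 to ECA19 and 7 on the other chromosomes. From 10 to under 20 these were 236 and 72, from 20 to under 40 they were 106 and 19, and from 40 to under 100 they were 46 and 18. At an AC of 100 or more, outside the members, they were 21 and 23. The lowest AC of a member was 5.09 to 8.3 on the single chromosomes of the first group. It was 6.68 on ECA20 and 9.03 to 29.87 on the other 20 chromosomes. Whether the same lower limit of AC had been applied to all chromosomes was not tested, so the densities of the 2 groups may not be comparable. Within the first group 35.3% of members (188 of 532) were open throughout and the median GC content was 53.8%, and within the second these were 25% (29 of 116) and 51.2%. Among partly masked tags the shares open throughout were 10.1 and 10% in the same groups.

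**Figure D5:**
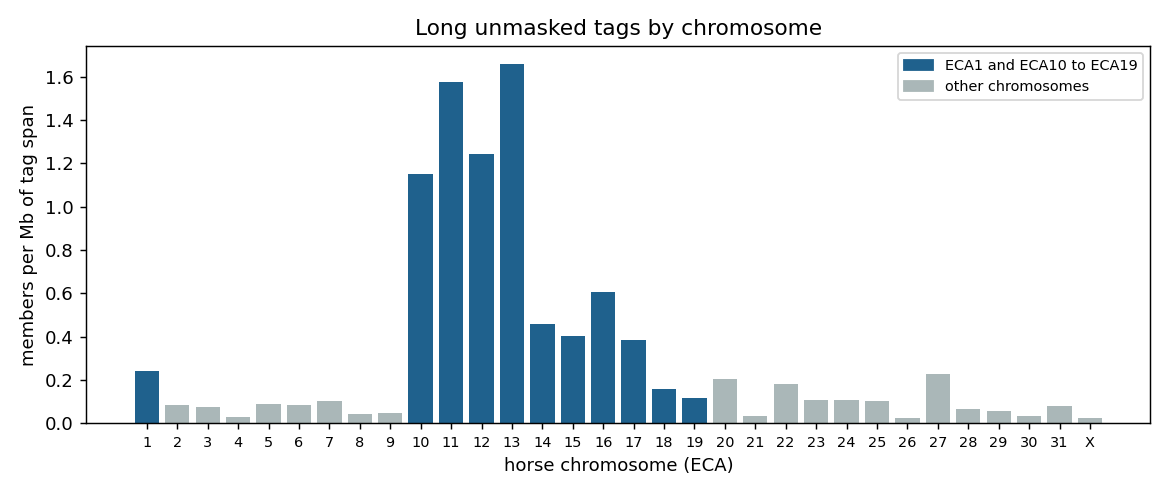
Members per Mb of the span between the first and the last tag of each chromosome (y axis) for the 31 autosomes and the X chromosome (x axis). Blue bars are ECA1 and ECA10 to ECA19, from 0.117 to 1.66 per Mb, and grey bars the other 21 chromosomes, from 0.0242 to 0.229 per Mb.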

How the data were processed

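Total sperm RNA of 2 stallions was sequenced as single-end SOLiD reads after reverse transcription with random hexamers. As the methods state, the authors aligned the reads to EcuCab2 with NovoalignCS, discarded reads with several alignments of like score (tags of identical sequence do not bear this out), clustered the rest into tags and scaled the libraries linearly; the deposited average coverage is a signal value, 1 per tag. This value was the higher of the 2 for the 51 members, among the more abundant tags, found in the study's table of both stallions. For the others this was not checked. Values of single libraries were not used here.

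Members, frames, loci and repeats were computed with Python 3.11.15 and numpy 2.4.6 and similarity with blastn 2.17.0 (E-value limit 1e-05, words of 11 bases). Reading of the tags, membership, open frames, shifts, joining and the zinc finger search were tested on simulated data; similarity, shared frames, codon positions and the AATAAA search were not. Size per chromosome is the span from the first to the last tag. The tags named are the 10 longest, the 10 highest, the 5 largest loci with those of equal size, those next to each limit and those with a name in the study; the zinc finger, repeat, mitochondrial, similar and identical tags were named after their values were seen. Members and lists were chosen with earlier results of these data known. No genome of this build, protein or promoter table was used here, so that the planned matches to RefSeq proteins and promoters and the lists of marker genes were not run.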

Additional observations from a re-analysis of the deposited data

How the results depend on the processing

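Of 23 alternatives, 16 stayed within 1.5 times the count or within the 95% binomial interval of the share or median, and 7 did not. These intervals treat tags as independent, although tags of 1 locus can come from 1 transcript. They are therefore a rough guide and not a test. A minimum length of 200 bp gave 1338 members and 500 bp gave 265, in place of 648. With 500 bp the median GC content was 52.1% and there were 0.113 members per Mb, in place of 53.4% and 0.275. Within 5000 bp of another member lay 32.1% of the members, in place of 45.1% within 20000 bp. Open runs counted from ATG to a stop codon within the tag had a median of 174 bp, in place of 336 bp without these limits. The alternatives for the share open throughout (33.5%) were added after seeing the data: on chromosomes other than ECA1 and ECA10 to ECA19 it was 25%, and the cause was not tested. Other settings for matches to RefSeq proteins and promoters were not run. No read counts were used, so the precision of a single average coverage is unknown.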
